A study of Mus musculus with 4 samples.

Results

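The let-7 family is a group of miRNAs with near-identical sequences that is encoded at many loci of the mouse genome, and the target sites of its 9 guide arms are described here. The arms are listed as mmu-let-7a-5p, mmu-let-7b-5p, mmu-let-7c-5p, mmu-let-7d-5p, mmu-let-7e-5p, mmu-let-7f-5p, mmu-let-7g-5p, mmu-let-7i-5p and mmu-let-7k, where mmu stands for mouse and is left out below. Its members were chosen by name, as all entries of the peak lists that carried one of these arms, and their reads were taken per member and summed over members in each peak. In the control library they made up 11222 of 93468 entries and lay in 4982 of 20754 peaks, and in the mimic library they made up 12040 of 100897 entries and lay in 5359 of 21872 peaks. A peak with at least 1 such entry is called a let-7 site below.

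The measurement was chimeric eCLIP-seq of Ago2, an Argonaute protein that holds a miRNA and brings it to its target RNA. The miRNA and the target fragment were ligated to each other on the Ago2 beads, so that a chimeric read names the miRNA and the place that it was bound to. Both libraries came from plantaris muscle of 5-month-old male C57BL/6J mice after 10 days of mechanical overload (MOV), in which part of the gastrocnemius and soleus is removed surgically and the plantaris grows. The control plantaris had received a scramble control lentivirus and the mimic plantaris a lentivirus with a miR-1a-3p mimic. Both viruses carried TurboGFP and a mouse CMV promoter, which is not restricted to muscle fibres. The control virus was given on the left side and the mimic on the right side of the same mice, per the methods, so that virus and body side cannot be told apart. There was 1 library in each of these groups, and the sources used here state neither whether a library was 1 muscle or a pool nor whether both came from 1 mouse. The 2 input libraries of the series were not analysed here. No test between groups was therefore possible, and every interval below is a 95% interval that covers counting error only.

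let-7 is best known as a brake on growth and proliferation, whose level rises as cells leave the embryonic state and differentiate. Like other miRNAs it recognises targets mainly through its seed, bases 2 to 8 of the guide arm, and its known targets include mRNAs of the Myc family, cell cycle genes, Hmga2, Dicer1 and genes of insulin and IGF signalling. In adult tissues such as skeletal muscle it is among the most abundant miRNA families.

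The mature sequences, from RefSeq for GRCm38, are shown because the members differ by a few bases only, and the seed is in capitals.
let-7a-5p: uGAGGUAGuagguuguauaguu
let-7b-5p: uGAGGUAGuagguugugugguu
let-7c-5p: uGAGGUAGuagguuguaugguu
let-7d-5p: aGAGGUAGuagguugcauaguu
let-7e-5p: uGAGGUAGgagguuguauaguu
let-7f-5p: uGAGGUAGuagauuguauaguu
let-7g-5p: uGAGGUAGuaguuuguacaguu
let-7i-5p: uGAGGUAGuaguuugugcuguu
let-7k: uGAGGUAGgagguugugug
miR-98-5p: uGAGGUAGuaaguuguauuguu
All 9 members had the seed GAGGUAG, whose match in a target reads CTACCTC. let-7c-5p, let-7e-5p and let-7f-5p differed from let-7a-5p at 1 base, let-7b-5p, let-7d-5p and let-7g-5p at 2, let-7k at 3 and let-7i-5p at 4. How a read was given to 1 of such similar names is not stated in the sources used here, so sums over the family are firmer than values of single members. miR-98-5p has the same seed under another name and is given beside the family.

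The family held 29364 reads in control and 29985 in mimic muscle. These were 12.6% (12.5 to 12.8%) of the 232408 control reads and 11.6% (11.4 to 11.7%) of the 259207 mimic reads, while its share of entries was 12.01% (11.8 to 12.2%) and 11.9% (11.7 to 12.1%). The share of reads was therefore lower in the mimic beyond counting error, and the share of entries was not. let-7c-5p had the most reads, with 6958 in control and 7025 in mimic muscle, followed by let-7a-5p with 5636 and 5835 and let-7b-5p with 4949 and 4943. let-7f-5p had 3680 and 3883 reads, and let-7d-5p had 2922 and 3319. let-7i-5p had 1561 and 1497, let-7g-5p had 1504 and 1521, and let-7e-5p had 1389 and 1244, so that the order of these members was not the same in the libraries. let-7k had the fewest, 766 and 718. miR-98-5p had 117 and 153 reads, and the passenger arms of all let-7 loci, the strands that are mostly discarded when the guide is loaded, had 161 and 164 together. Of the miR-98-5p entries, 92 of 99 in the control and 116 of 126 in the mimic lay in a let-7 site.

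**Figure D1:**
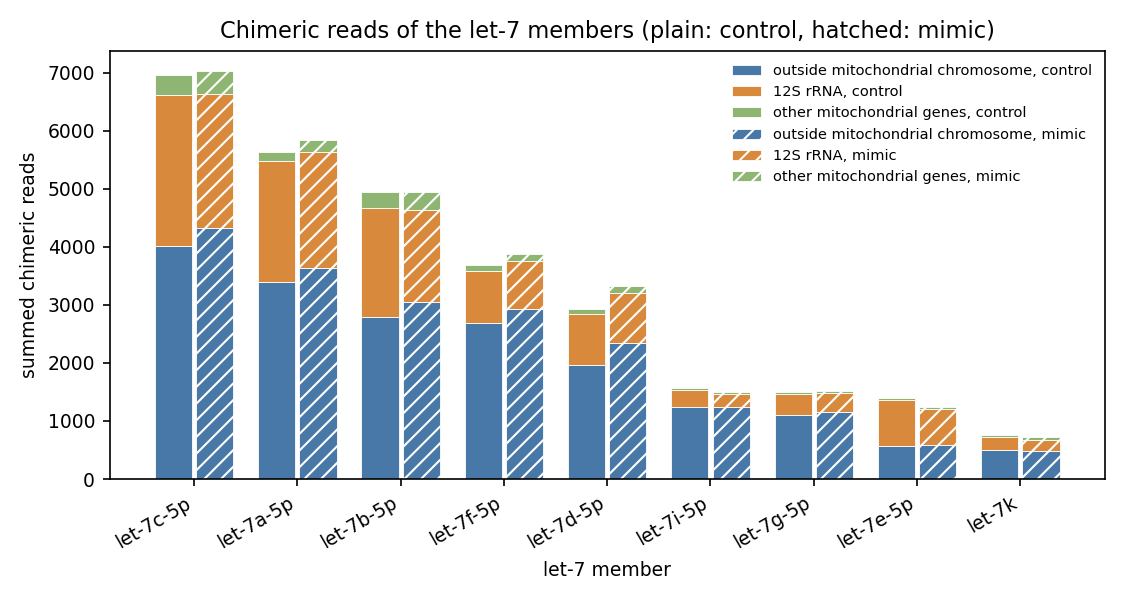
Summed chimeric reads (y axis) of the 9 let-7 members (x axis), with plain bars for the control and hatched bars for the mimic, split into reads outside the mitochondrial chromosome, at 12S rRNA and at other mitochondrial genes. let-7c-5p is the highest with 6958 and 7025 reads and let-7k the lowest with 766 and 718, and the share of a member's own reads that lies at 12S rRNA is highest for let-7e-5p, at 56.6% and 50.7%.

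The mimic library was 1.12 times as deep as the control. The family's reads were 1.02 times (1.005 to 1.04) those of the control as counted, and 0.916 times (0.901 to 0.930) after each library was divided by its total. Outside the mitochondrial chromosome the ratio was 1.08 (1.06 to 1.104) as counted. It was 0.967 after division by each library's total of reads outside that chromosome. Among the members the ratio as counted ran from 0.896 (0.829 to 0.968) for let-7e-5p to 1.14 (1.08 to 1.19) for let-7d-5p. The 148 miRNAs with at least 50 entries in each library, the members included, had a median of 1.06, with 0.764 and 1.46 at their 5th and 95th percentiles. Per library total, 2.70% of these miRNAs were above 1.5 times and 4.05% below, and none of the 9 members was past 1.5 times in either direction.

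**Figure D2:**
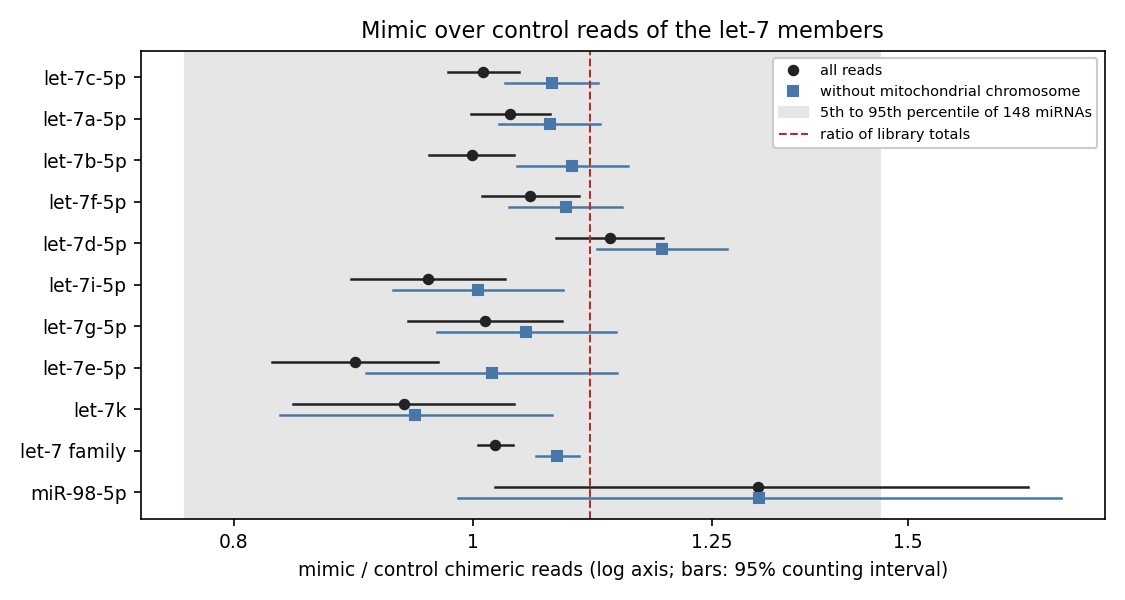
Ratio of mimic to control chimeric reads (x axis, log scale, not divided by library totals) for each let-7 member, the family and miR-98-5p, with all reads as circles and reads outside the mitochondrial chromosome as squares; bars are 95% counting intervals. The dashed line is the ratio of library totals, 1.12, and the grey band runs from 0.764 to 1.46, the 5th to the 95th percentile of 148 miRNAs, which holds all 9 members.

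The site with the most let-7 reads was in 12S rRNA, the RNA of the small subunit of the mitochondrial ribosome, encoded by mt-Rnr1 on the plus strand of the mitochondrial chromosome (M:70-1024). A single peak, M:617-720 in both libraries, held 9408 let-7 reads in control and 8337 in mimic muscle. That was 32.0% (31.5 to 32.6%) and 27.8% (27.3 to 28.3%) of all reads of the family. let-7 made up 94.95% (94.5 to 95.4%) of the reads of this peak in control and 93.7% (93.1 to 94.2%) in mimic muscle, and the next miRNA there was miR-24-3p with 51.0 reads in the control and miR-1a-3p with 57.1 in the mimic. Per library total, the mimic value was 0.795 times (0.771 to 0.818) that of the control. Reads of all other miRNAs at mt-Rnr1 were 0.999 times, with 675 and 752 reads as counted. Nuclear copies of mitochondrial DNA carry near-identical sequence, and how the authors treated reads that fit both is not stated in the sources used here.

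The sequence under this peak holds the complete seed match, and it and a shorter match are shown with the match in capitals.
12S rRNA, M:637-666, plus strand: ataaaccccgctCTACCTCaccatctcttg
mt-Cytb, M:15055-15084, plus strand: tacctttccttcaTACCTCaaagcaacgaa
CTACCTC was found once on the plus strand of the 16299 bases of the mitochondrial chromosome, at bases 649 to 655, and not on the minus strand. The sequence was read from the NCBI m37 mitochondrial chromosome, on which all 37 gene spans are the same as in GRCm38. The shorter TACCTC, the match to bases 2 to 7, was found at 2 more places on the plus strand. In mt-Cytb, at bases 15068 to 15073, the peak over it held 98.8 let-7 reads in control and 152 in mimic muscle, and at bases 282 to 287 of mt-Rnr1 there were none. On the minus strand it was found at 2 places, neither with let-7 reads. By predicted pairing energy, the best duplex in the 12S rRNA peak covered CTACCTC for let-7b-5p, let-7c-5p, let-7d-5p, let-7f-5p, let-7g-5p and let-7i-5p. It overlapped the match in part for let-7k (M:654-675). For let-7a-5p (M:665-686) and let-7e-5p (M:676-696) it lay beside the match. Where the members paired in the muscle was not tested.

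mt-Rnr1 as a whole held 10008 and 8935 let-7 reads, 34.1% (33.5 to 34.6%) and 29.8% (29.3 to 30.3%) of the family. The members differed in how much of their reads lay there. let-7e-5p had 56.6% (53.9 to 59.1%) of its reads at 12S rRNA in control and 50.7% (47.9 to 53.5%) in mimic muscle, the highest share. let-7i-5p had 18.96% (17.05 to 20.997%) and 14.7% (13.003 to 16.7%), the lowest. let-7a-5p, let-7b-5p and let-7c-5p lay between 37.1 and 38.1% in the control and between 32.0 and 34.3% in the mimic. All other miRNAs together had 0.333% and 0.328% of their reads at 12S rRNA.

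The other genes of the mitochondrial chromosome, which encode subunits of the respiratory chain, the large ribosomal RNA and tRNAs, held far fewer let-7 reads. mt-Nd4, a subunit of complex I, had 250 and 265, of which 44.0% (37.8 to 50.4%) and 42.8% (36.6 to 48.8%) were let-7c-5p. mt-Nd5, also of complex I, had 201 and 278, and mt-Cytb, the cytochrome b of complex III, had 197 and 267. In mt-Cytb the leading member was let-7b-5p, with 38.9% (32.2 to 46.3%) and 32.9% (27.4 to 39.0%). mt-Nd1 had 167 and 215, with let-7f-5p at 24.2% in both libraries. The 16S rRNA mt-Rnr2 had 195 and 146, which was 2.14% and 1.55% of its reads of all miRNAs. mt-Nd2 had 65.5 and 86.2, mt-Co1 14.2 and 24.3, the tRNA mt-Tm 3.19 and 9.48, and mt-Nd3 4 and 4.96. The tRNA mt-Tv had 0 and 1.71 reads, mt-Nd6 0 and 1, and the tRNA mt-Tl1 0.682 and 0, too few for a comparison. In all, the mitochondrial chromosome held 37.8% of let-7 reads in control and 34.1% in mimic muscle, against 10.2% and 10.7% of the reads of all other miRNAs.

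Outside the mitochondrial chromosome, let-7 sites were spread over many genes with few reads each. Genes with a let-7 site numbered 2726 in control and 2889 in mimic muscle, mitochondrial genes included, and 1776 of them were shared. They were 41.2% of the 6622 control genes and 41.8% of the 6906 mimic genes with reads of any miRNA. Of these, 288 and 279 had at least 10 let-7 reads, and 21 and 24 had at least 100. The 12 nuclear genes with the most let-7 reads held 30.1% and 33.4% of the let-7 reads at nuclear genes.

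Among these 12 were genes of the contractile apparatus. Ttn, which encodes the giant spring protein titin (2:76703980-76982557, minus strand), had 723 let-7 reads in control and 1183 in mimic muscle, spread over 88 and 151 sites. Per library total this was 1.47 times (1.34 to 1.61), and the reads of all other miRNAs at Ttn were 1.195 times. Most of it lay in 1 region, 2:76718333-76718507, with 490 and 814 let-7 reads. Acta1, the skeletal muscle actin (8:123891758-123894775, minus strand), had 714 and 826 reads, or 1.04 times (0.937 to 1.15). Its reads were concentrated at 8:123892833-123892945 with 433 and 438 reads and at 8:123891811-123891872 with 255 and 361. Neb, the thin filament ruler nebulin, had 295 and 327 reads (0.993 times, 0.847 to 1.17). Myh1, the fast myosin heavy chain IIx, had 206 and 375 (1.63 times, 1.37 to 1.94), but its other miRNAs had 1.60 times as well, and reads of its paralogs may be hard to separate. Xirp2, which encodes an actin-binding protein of the Xin family, had 181 and 311 (1.54 times, 1.28 to 1.86), with 0.894 times for other miRNAs. Nearly all of it, 176 and 309 reads, lay at 2:67513652-67513806, where all other miRNAs had 7.03 and 14.4. Ckm, the muscle creatine kinase, had 374 and 452 reads (1.08 times, 0.943 to 1.246).

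The rest of the 12 were matrix, growth and housekeeping genes. Thbs1, the matricellular protein thrombospondin 1 (2:118111876-118127133, plus strand), had 620 let-7 reads in control and 397 in mimic muscle, which was 0.575 times (0.505 to 0.652) per library total, against 0.817 times for all other miRNAs. Nearly all lay at 2:118126476-118126624, with 611 reads in 1 control peak and 390 in 3 touching mimic peaks. Igf2, the growth factor insulin-like growth factor 2 (7:142650768-142666816, minus strand), had 376 and 302 reads, 0.720 times (0.617 to 0.840) against 0.862 for other miRNAs. Its main region, 7:142658559-142658684, had 312 and 247. Col1a1, the alpha 1 chain of type I collagen, had 295 and 302 (0.921 times, 0.779 to 1.08), and Actb, the cytoplasmic beta actin, had 238 and 239 (0.8998 times, 0.749 to 1.08). H19, an imprinted long noncoding RNA that has been described as a sponge for let-7, had 244 and 345 reads (1.27 times, 1.07 to 1.4998). They were 5.32% and 6.13% of its reads of all miRNAs. Rn18s-rs5, a copy of the repeated ribosomal RNA genes, had the most with 1157 and 1453 (1.13 times, 1.04 to 1.22). The strand of this gene was not known from the tables used and its copies cannot be told apart. In the mimic, 1 peak there, 17:39847605-39847635, had 372 let-7 reads and was missing from the control list. Another, 17:39847668-39847688, had 45.3 and no let-7 site in the control. The ratio includes both peaks, and the 372 reads alone exceed the difference between the gene's totals.

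**Figure D3:**
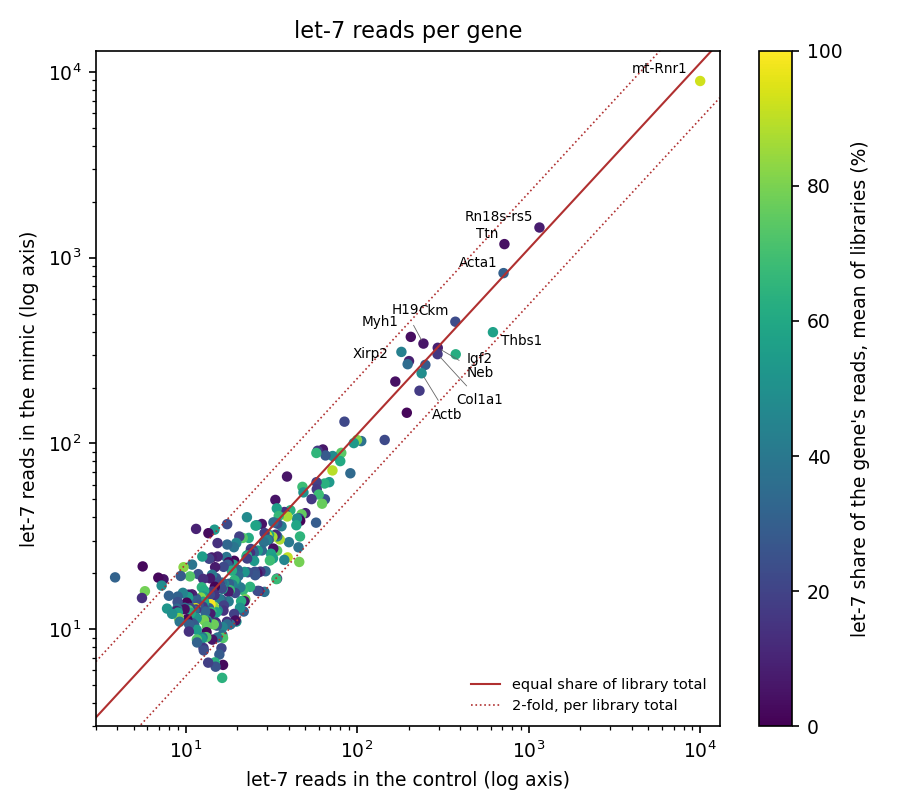
let-7 reads per gene in the control (x axis) and the mimic (y axis), both on log scales, for genes with a mean of at least 10 let-7 reads, coloured by the let-7 share of the gene's reads. The solid line marks equal shares of the library totals and the dotted lines a 2-fold difference: most genes lie between the dotted lines, mt-Rnr1 stands apart at the top, and Thbs1 lies below and Ttn, Myh1 and Xirp2 above the solid line.

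Per library total, of the 265 genes with a mean of at least 10 let-7 reads, 10 (3.77%) were more than 2-fold higher in the mimic and 13 (4.91%) more than 2-fold lower. For the reads of all other miRNAs at 2526 genes these shares were 4.75% and 6.81%, so the let-7 shares were no higher than this background. The median ratio was 0.922 (0.874 to 0.968) for let-7 and 0.953 for other miRNAs. The counting interval of a gene left out 1 at 34 of the 265 genes. The same count was not made for other miRNAs, so whether this share is high was not tested.

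Members with the same seed did not have the same targets in the same proportions. At Thbs1, let-7d-5p made up 1.45% (0.666 to 2.74%) of let-7 reads in control and 2.43% (1.21 to 4.58%) in mimic muscle. At Acta1 it made up 19.6% (16.8 to 22.7%) and 16.9% (14.5 to 19.7%), and at Myh1 20.2% (15.1 to 26.5%) and 24.6% (20.3 to 29.2%). At Xirp2, let-7f-5p was 2.59% (0.903 to 6.33%) and 1.61% (0.524 to 3.71%), while at Thbs1 it was 25.3% (21.9 to 28.9%) and 28.7% (24.3 to 33.4%). let-7f-5p differs from let-7a-5p by 1 base, and let-7a-5p was 20.997% (15.3 to 27.7%) and 24.4% (19.8 to 29.6%) at Xirp2. Igf2 had the highest share of let-7a-5p among the 12 genes, 31.1% (26.5 to 36.1%) and 32.9% (27.5 to 38.4%). Among the same 12 genes, let-7i-5p was highest at Ckm, with 13.2% (9.85 to 16.9%) and 11.7% (8.91 to 15.1%). let-7e-5p was 7.85% (7.32 to 8.39%) and 7.06% (6.54 to 7.61%) at 12S rRNA, and 8.21% (4.71 to 13.3%) and 6.74% (4.23 to 10.1%) at Xirp2, but 1.197% (0.578 to 2.38%) and 1.66% (0.930 to 2.83%) at Acta1. Over all sites outside the mitochondrial chromosome, let-7d-5p was 10.7% and 11.8%, let-7e-5p 3.13% and 2.94%, and let-7f-5p 14.8% and 14.9% of the family. These differences of let-7d-5p, let-7e-5p and let-7f-5p between the genes compared exceeded the counting intervals and had the same direction in both libraries. What part of them comes from the way that reads were given to near-identical names was not tested. The genes and members named here were chosen after their values were seen. The libraries of a gene were not always alike. At Ttn, let-7f-5p was 14.98% (12.4 to 17.7%) in control and 20.1% (17.9 to 22.5%) in mimic muscle.

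**Figure D4:**
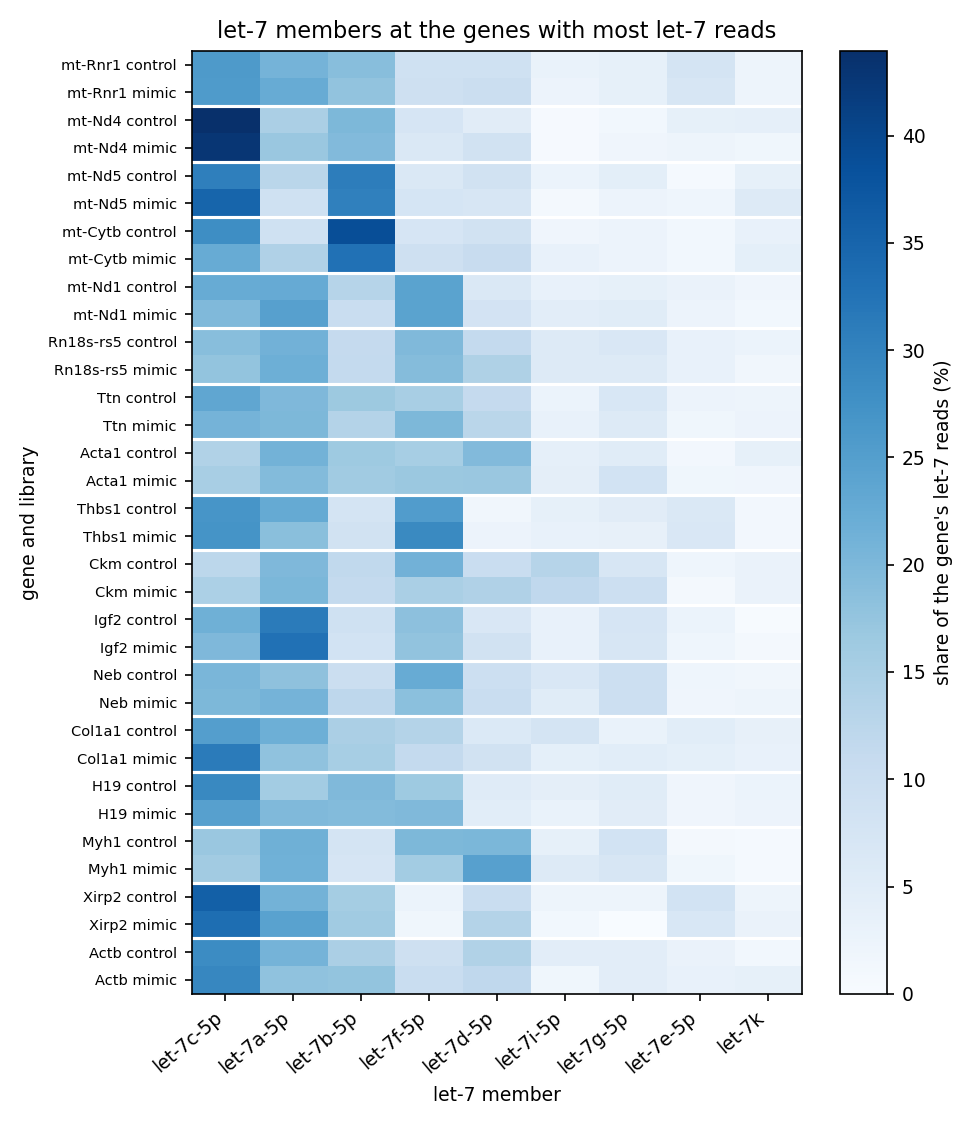
Share of each gene's let-7 reads (colour, in percent) that belonged to each let-7 member (columns), for 5 mitochondrial genes and the 12 nuclear genes with the most let-7 reads, each with the control above the mimic. The low let-7f-5p of Xirp2 (2.59% and 1.61%) and the low let-7d-5p of Thbs1 (1.45% and 2.43%) appear in both libraries. These examples were chosen after the values were seen. The libraries of a gene were not always alike. let-7f-5p of Ttn was 14.98% (12.4 to 17.7%) in the control and 20.1% (17.9 to 22.5%) in the mimic.

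A list of 46 genes that are widely cited as let-7 targets was looked up next. Of these, 34 had reads of any miRNA in at least 1 library. A let-7 site was found at 25 of the 32 genes with reads in control and at 27 of 32 in mimic muscle. Of all genes with reads, 41.2% and 41.8% had one, and these shares were not matched for reads per gene. Sarcomere genes, not chosen as let-7 targets, had a site at 34 and 36 of 40. The oncofetal targets, which are silent in most adult tissues, were at 0: Hmga2, Lin28a, Lin28b, Igf2bp1, Igf2bp3 and Trim71 had no reads of any miRNA. Mycn, Fas, Il13, Il6 and Limd2 had none either. Hras, Cdk6, Ago4 and Stard13 had reads of other miRNAs but none of let-7. Thbs1 alone held 70.7% and 59.99% of the list's let-7 reads, which were 876 and 662. Without it, the list had 256 and 265 reads, or 0.927 times (0.779 to 1.11) per library total, and this exclusion was chosen after the values were seen. Among the 9 members with a mean of at least 10 reads, the median ratio was 0.828, beside 0.922 over all 265 genes, with none above 2-fold and 1, the activin receptor gene Acvr1b, below.

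The members of this list with a site of at least 3 reads covered several roles. Dicer1, the enzyme that cuts let-7 itself from its precursor, had 22.8 let-7 reads in control and 40.1 in mimic muscle, 45.3% and 49.4% of its reads. Among cell cycle genes, Cdc34, a ubiquitin-conjugating enzyme, had 25.6 and 36.1, the E2F factors E2f6 and E2f5 had 7.97 and 9.41, and 6 and 0, and cyclin D2, Ccnd2, had 8.03 and 1.91. Of the TGF-beta and activin receptors, Tgfbr1 had 26.4 and 26.5, Acvr1b 15.8 and 7.30, and Acvr2a 5.93 and 1.04. Among signalling and transcription genes, the phosphatase Dusp1 had 54.3 and 50.2, Nras 6.76 and 4.15, Map4k3 2.65 and 6.15, Myc 3.44 and 7.73, Plagl2 12.7 and 7.93, and Arid3a 4.98 and 6.501. Genes of RNA binding and decay were Zfp36l1 with 12.6 and 13.2 and Igf2bp2 with 3.94 and 3.81, and Fndc3a had 15.8 and 14.5. Of the receptors and adaptors of insulin signalling, Insr had 4.86 and 5.11, Igf1r 4.46 and 5.01, and Irs2 5.08 and 7.64. With such counts, the intervals of the ratio were wide, and only that of E2f5, 0 to 0.762, and of Thbs1 left out 1.

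Signalling through mTORC1 is among several mechanisms of muscle growth that the authors name. A list of 36 genes of insulin, IGF and mTORC1 signalling was therefore counted too. A let-7 site was present at 19 of the 30 genes with reads in the control and at 24 of 33 in the mimic, beside 41.2% and 41.8% of all genes with reads. Igf2 held 76.6% and 69.1% of their let-7 reads. The insulin receptor substrate Irs1 had 28.6 and 29.4, and the growth factor Igf1 had 26.3 and 16.1. All other members had at most 15.1 reads, the value of Pik3r1 in the mimic. The list had 491 and 437 let-7 reads, 0.797 times (0.6999 to 0.910) per library total, and 1.05 times (0.815 to 1.36) without Igf2, an exclusion chosen after the values were seen.

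Per library total, sarcomere genes had more let-7 reads in the mimic and matrix genes fewer, and the reads of all miRNAs went the same way. Reads of all miRNAs include those of let-7 here. Of all genes with reads, 41.2% and 41.8% had a let-7 site, and the counts of each list below stand beside these shares. A let-7 site was found at 34 and 36 of 40 sarcomere genes, led by Ttn, Acta1 and Neb, and their let-7 reads were 2464 and 3401, 1.24 times (1.17 to 1.30) per library total, or 1.14 times (1.07 to 1.22) without Ttn. Their reads of all miRNAs, with Ttn, were 1.14 times, and this value was not computed without Ttn. Collagen genes had sites at 18 of the 22 genes with reads in the control and 18 of 21 in the mimic, led by Col1a1, Col3a1 with 231 and 192, and Col5a1 with 91.4 and 69.1. Their let-7 reads were 910 and 877, or 0.864 times (0.787 to 0.949), with 0.897 times for all miRNAs. Of 34 other matrix and growth factor gene names, of which Ctgf and Ccn2 name 1 gene, 29 had a site in each library, with 31 genes with reads in control and 33 in mimic muscle. Behind Thbs1 came the matricellular protein periostin, Postn, with 145 and 104, and the membrane-bound metalloprotease Mmp14 with 99.96 and 104. This list had 0.711 times (0.655 to 0.772) for let-7 and 0.776 times for all miRNAs. Without Thbs1 it had 0.834 times (0.748 to 0.930) for let-7. The value of all miRNAs was not computed without Thbs1, so the 0.776 times is not its counterpart. Among 23 genes of glycolysis and glycogen use, 19 and 22 had reads of any miRNA and 15 and 14 a let-7 site. They had 92.5 and 130 let-7 reads in all, 1.26 times (0.963 to 1.67) per library total, while their reads of all miRNAs were 0.898 times. They were led by the glycogen phosphorylase Pygm (27.9 and 36.8), the phosphorylase kinase subunit Phka1 (17.5 and 36.8) and the phosphofructokinase Pfkm (7.44 and 18.6).

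The labelled tissue was set beside marker genes, counted by their chimeric reads. All 12 markers of skeletal muscle fibres had reads of some miRNA, 42409 in control and 54609 in mimic muscle, 1.15 times per library total. The 7 fibroblast markers had 4839 and 4676 reads, 0.866 times. Marker lists of other cell types had fewer reads. There were 22.9 and 44.6 for endothelial markers, 90.8 and 146 for immune markers, and 23.1 and 30.1 for red blood cells. Schwann cells had 3.24 and 0, adipocytes 9.43 and 15.9, and smooth muscle and pericytes 191 and 204. The muscle and fibroblast markers thus moved with the let-7 reads of sarcomere and matrix genes, and their part in the let-7 values was not tested. The markers are largely members of these lists: Ttn, Neb, Acta1, Myh1, Myh2, Myh4, Tnnt3, Tnni2 and Mylpf are sarcomere genes, Pygm belongs to glycogen use, and Col1a1, Col1a2, Col3a1, Dcn, Lum and Postn are collagen or matrix genes. In bulk muscle, fewer cells of a type, less RNA per cell and less binding by miRNAs cannot be told apart. The lists also differ in length, so their reads do not rank cell types.

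At some genes let-7 took most of the reads of all miRNAs. Of the 265 genes with a mean of at least 10 let-7 reads, 76 had let-7 at 50% or more in both libraries, mt-Rnr1 included. No other miRNA family was counted in this way. Those named here were chosen after their values were seen. Cyb5r3, a cytochrome b5 reductase, had 71.9 and 71.6 let-7 reads, 89.1% and 89.4% of its total. Wnt9a, a Wnt ligand, had 39.4 and 24.35, or 94.1% and 86.8%. Pbx2, a homeodomain cofactor, had 29.98 and 31.8, or 91.6% and 88.7%. Pdk2, a kinase that restrains pyruvate dehydrogenase, had 39.2 and 40.4, or 82.4% and 91.3%. Mmp14 was at 77.9% and 83.9%, and Bach1, a repressor of heme oxygenase, had 62.5 and 47.4 reads, 82.4% and 70.9%. Rbms1, an RNA-binding protein, had 80.9 and 89.0, and Igdcc4, a membrane protein of the immunoglobulin superfamily, had 79.8 and 80.3. Fbxo32, the atrogin-1 ubiquitin ligase of muscle atrophy, had 34.9 and 40.7, or 67.2% and 66.2%. Across all 265 genes with a mean of at least 10 let-7 reads, the median let-7 share was 34.0%.

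Seed matches are not part of how members were chosen, so transcripts were searched for CTACCTC. Of 2689 coding genes with a mean of at least 10 reads of any miRNA, 2671 were found by name among GENCODE vM1 transcripts, of which the longest was searched on its sense strand. Among the 610 genes with no let-7 reads, 8.03% (6.002 to 10.5%) had a match in the 3′ UTR and 6.07% (4.31 to 8.26%) in the coding sequence. With a let-7 share above 15 and up to 30% of the gene's reads, the shares were 16.4% (12.6 to 20.9%) and 34.0% (28.9 to 39.4%) of 329 genes. Above 50%, they were 25.6% (18.2 to 34.2%) and 56.8% (47.6 to 65.6%) of 125 genes. Per 1000 bases, matches numbered 0.0516 in the 3′ UTRs of the lowest and 0.163 in those of the highest of these classes, and 0.0405 and 0.291 in their coding sequences. The classes had median lengths of 1310 and 1529 bases of 3′ UTR and 1275 and 1779 bases of coding sequence. ACATTCC, the match of the seed that miR-1a-3p shares with miR-206-3p, was searched in the same way. It was in the 3′ UTR of 14.1% (11.4 to 17.1%) of the first genes and 15.2% (9.41 to 22.7%) of the last. In coding sequences it was found in 10.98% (8.61 to 13.7%) of the first and 17.6% (11.4 to 25.4%) of the last. Of all 20351 coding genes, 7.71% had CTACCTC in the 3′ UTR and 12.9% in the coding sequence. Of the 2671 genes with reads, 10.9% and 18.1% did. The intervals treat genes as independent, and whether a peak lies on a match was not determined, since the transcripts are of another build than the peaks.

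**Figure D5:**
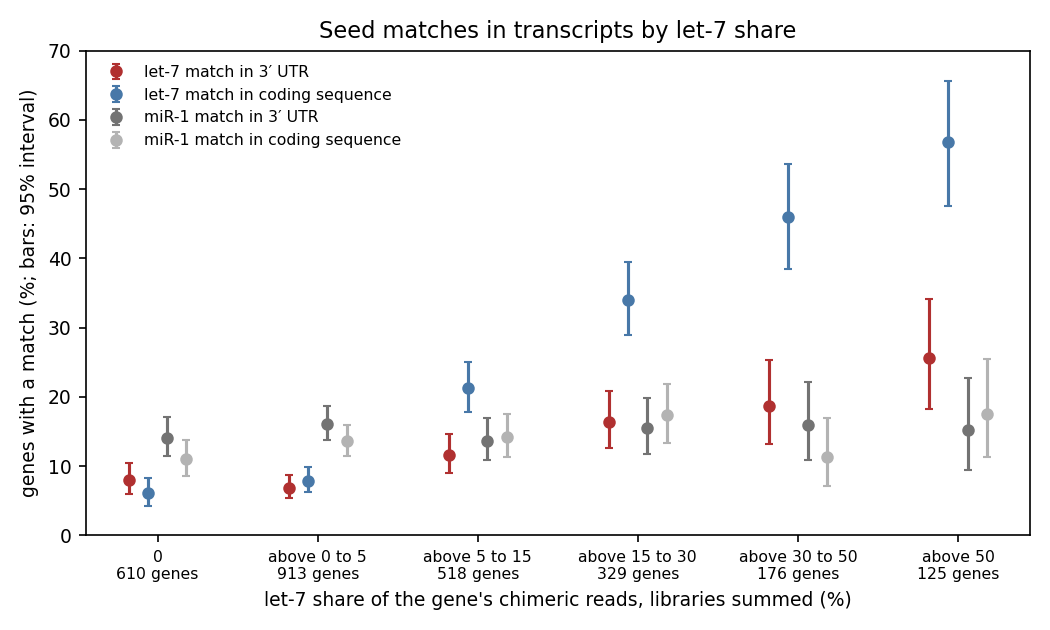
Share of genes (y axis, percent, with 95% intervals) whose longest transcript holds a seed match, by the let-7 share of the gene's chimeric reads (x axis classes, with the number of genes in each). The let-7 match rises from 6.07% to 56.8% in coding sequences and from 8.03% to 25.6% in 3′ UTRs, while the miR-1 match is 14.1% in the first class and 15.2% in the last in 3′ UTRs, and 10.98% and 17.6% in coding sequences.

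Of the 76 genes, 72 had such a transcript. CTACCTC was in the 3′ UTR of 26.4% (16.7 to 38.1%) of them, in the coding sequence of 56.9% and anywhere in 83.3%. For all 2671 genes with reads these shares were 10.9%, 18.1% and 28.6%. Some 3′ UTR matches of genes named above are shown in windows of 30 bases from GENCODE vM1, with the match in capitals, because they show what surrounds it at genes where let-7 led or was long known.
Wnt9a: agcctgtgatttctCTACCTCaactgtgtg
Pbx2: tctgactcggatatCTACCTCggagggagt
Bach1, match at base 2129 of the 3′ UTR: agccaatggatttcCTACCTCactggacac
Bach1, match at base 2422 of the 3′ UTR: tacaagtaactacaCTACCTCatacacacc
Rbms1: acgtgatcagttatCTACCTCagaggctat
Igdcc4: tcctaacaacatgaCTACCTCatgtctgct
Fbxo32: tgccacacaatggtCTACCTCtaaaagcat
Cdc34: cctcaggcgacagaCTACCTCaccgaggtt
Tgfbr1: ggaggctggttgttCTACCTCactgagaga
Insr: cttctcagtacagtCTACCTCagtgtctta
Thbs1, Acta1, Ckm, Neb and Myh1 had many let-7 reads but no CTACCTC anywhere in their longest transcript. Shorter seed matches and other transcripts of these genes were not searched, so a seed site there is not excluded. Ttn had 6 matches and Xirp2 1, all in the coding sequence.

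Most let-7 sites were small. In the control 47.8% of sites had 1 member only, and these held 5.69% of let-7 reads. In the mimic the values were 48.2% and 5.91%. All 9 members were present at 74 control sites, which held 57.5% of let-7 reads, and at 71 mimic sites, which held 53.6%. Sites with at least 10 let-7 reads numbered 283 and 295 and held 72.0% and 71.0% of the reads. let-7 sites had a median length of 64 and 66 bases, against 57 and 58 for other peaks. Peaks over the hairpins of let-7 loci numbered 5 in each library and held at most 12.1 reads of all miRNAs and 1.11 of let-7.

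The peaks with let-7 also held many of the reads of other miRNAs. Any let-7 entry makes a peak a let-7 site, so peaks with many reads can qualify more easily. The shares below were not matched for reads per peak, and sites of other abundant miRNAs were not counted in the same way. Whether the pattern is particular to let-7 was therefore not tested. The let-7 sites outside the mitochondrial chromosome were 23.9% of control peaks and 24.4% of mimic peaks there, and held 48.9% and 54.0% of the reads of all other miRNAs outside it. let-7 made up 17.0% and 15.2% of the reads in them. The 5 other miRNAs with the most reads there were the muscle miRNAs miR-133a-3p with 21384 and 29674, miR-1a-3p with 9581 and 13523, miR-133b-3p with 6544 and 7858, and miR-206-3p with 6704 and 6533, and then miR-378a-3p with 2749 and 3909. Of their reads outside the mitochondrial chromosome, these miRNAs had between 51.0% and 58.2% in let-7 sites in the control and between 55.1% and 63.3% in the mimic.

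Of the control let-7 sites, 45.9% (44.5 to 47.3%) shared at least 1 base on the same strand with a mimic let-7 site, and 52.8% of the control peaks of other miRNAs did so with a mimic peak of other miRNAs. Sites below 1 read were shared in 28.7% of cases (26.8 to 30.7%), those of 1 to 3 reads in 42.7% (40.4 to 45.1%) and those of 3 to 10 reads in 79.9% (77.0 to 82.6%). At 10 reads or more, 279 of 283 sites were shared, which was 98.6% (96.4 to 99.6%). Peaks of other miRNAs in the same classes of reads had 31.7%, 33.3%, 63.7% and 95.9%. At 2201 sites paired by mutual best overlap, the median log2 change of let-7 reads from control to mimic was 0.041 (0.00 to 0.095) with an SD of 1.92 among sites. It was 0.074 for other miRNAs, and equal depth-scaled values would give 0.157. At pairs with a mean of at least 10 reads the median was 0.042 (-0.031 to 0.131) for let-7 and 0.165 for other miRNAs.

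Of the 273 pairs with a mean of at least 10 reads, 13 (4.76%) were more than 2-fold higher per library total in the mimic and 16 (5.86%) lower, where the peaks of other miRNAs had 6.46% and 7.77%. The 3 largest ratios below 1 were at Neb (2:52256223-52256293) with 43.6 and 7.72 let-7 reads, at the main site of Thbs1 with 611 and 185, and at mt-Rnr2 (M:1850-1888) with 38.9 and 12.9. The Thbs1 value is for 1 of the 3 mimic peaks, and the ratio was 0.573 (0.503 to 0.651) over the whole region. The mimic peaks at Neb and mt-Rnr2 were cut to a few bases, and reads beside them may not have been listed. The 3 largest ratios above 1 were at another site in Neb (2:52287057-52287135) with 3.11 and 17.1 reads, at the small heat shock protein gene Hspb6 with 4.15 and 18.4, and at the aspartate aminotransferase gene Got1 with 5.41 and 22.7. Over merged regions, the ratio at Hspb6 was 2.38 (0.919 to 6.53) and at Got1 1.97 (0.944 to 4.85), so that both intervals held 1. That at Neb was 4.91 (1.47 to 27.1).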

How the data were processed

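Peak lists of the control and the mimic library were analysed. Per the labels and values, the authors deposited estimated counts, 1 value for each miRNA and peak, not scaled to depth. Totals were 232408 and 259207. Per the labels, the authors' processing notes name UMI-tools 1.1.1, cutadapt 3.2, STAR 2.7.7a, Bowtie 1.2.3, HOMER 4.11 and mm10. The methods name mm9 and peak calling with CLIPper; the coordinates were of GRCm38 (mm10) and are counted from 1. Many values were fractions: 52.6% and 54.3% of let-7 entries were under 1 read, and the origin of fractions is not stated in the sources used here.

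Target genes were assigned by the longest same-strand overlap with gene spans of GRCm38, then with genes whose strand was unknown, which gave a gene to 99.02% of control and 98.99% of mimic peaks. Exons and UTRs of GRCm38 were not used here. Reads were rounded to whole numbers for intervals: Clopper-Pearson for shares, Poisson for counts, exact conditional binomial for ratios and order statistics for medians. PCR copies were removed by the authors, per the methods, but reads need not be independent molecules. Overlap needed 1 base on the same strand. Scripts used Python 3.11.15, pandas 2.3.3 and scipy 1.17.1 and were tested on simulated data. Predicted pairing was computed with ViennaRNA 2.7.2.

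Genes were named by a rule: the 12 nuclear genes with the most let-7 reads, all mitochondrial genes with a site, known targets with a site of at least 3 reads, the 3 largest changes each way, and the top 3 genes of each list. Some members of the list of known targets are not reported here. Members, lists and rules were chosen with earlier results of these data known. The methods also describe amplification with a miR-1 primer, so shares describe these libraries and not miRNA abundance.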

Additional observations from a re-analysis of the deposited data

How the results depend on the processing

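No paired analysis was possible because control and mimic are single libraries, even if they are opposite limbs of the same mice. Of 77 alternative values, 40 stayed within counting error, 35 moved and 2 were counted as changed in direction. Those 2 were the let-7 read ratio of mimic over control, which was 1.02 as counted, 0.916 when divided by library totals and 0.967 when the mitochondrial chromosome was left out as well; the division by a deeper mimic library accounts for them by construction. The same settings also turned the sign of the median log2 change at shared sites, from 0.041, whose interval began at 0, to -0.117 and -0.128; it was counted as moved. Entries of at least 3 reads gave let-7 shares of entries of 10.7% (control) and 10.3% (mimic), a share of mimic reads of 11.2%, a 12S rRNA share of let-7 reads of 48.96% and 43.5%, a read ratio of 1.004, a site overlap of 64.4%, and 365, 358 and 225 let-7 genes in the control, the mimic and both. Entries of at least 1 read gave shares of entries of 12.8% and 12.5%, 12S rRNA shares of 37.9% and 33.4%, an overlap of 49.96%, and 1725, 1756 and 1055 genes. Without the mitochondrial chromosome the share of reads was 9.10% and 8.80% and the ratio 1.08. Without Rn18s-rs5, let-7 had 13.01% and 11.8% of reads. Sites overlapped in 37.7% of cases at 50% reciprocal overlap, in 42.8% counted from the mimic and, per entry, in 38.0% where the same member was required. A minimum of 3 let-7 reads per gene gave 1003, 1062 and 687 genes. Alternatives chosen after seeing the data were to leave out 12S rRNA, which gave read shares of 8.73% and 8.44% and a ratio of 1.09, and to merge touching peaks, which gave an overlap of 44.4%. The cause of the moves was not tested beyond this. Adding miR-98-5p moved none of the results.

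The limits are 1 library in each group, so that no spread between animals is known, peaks cut at different places in the libraries (627 touching control peaks and 654 touching mimic peaks), near-identical members, and few reads at most sites. At genes with under 10 let-7 reads a 2-fold difference lies within counting error. Some genes past 2-fold with a mean of at least 10 reads also had intervals that held 1, such as Dynll1 (0.144 to 1.09) and Pfkm (0.980 to 6.85).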
